A study of Rattus norvegicus with 2 samples.

Results

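The unfolded protein response and the integrated stress response were followed through 32 named rat genes, of which 30 had a probe that could be named here and 29 gave a level on both arrays, out of 9026 genes with a level in all. The list was set by gene name and a probe counted where its accession is a transcript of a listed gene. It holds 5 sensors and transcription factors, 10 chaperones and foldases of the endoplasmic reticulum (ER), 3 genes of ER-associated degradation and 14 genes of the kind that the transcription factor ATF4 is known to drive. Total RNA came from RMT-1 cells, a rat mammary tumour line of which clone E4 was used, given either an siRNA against Pla2g4c or a negative control siRNA by transient transfection, and was labelled with Cy3 and hybridised to 1 one-colour expression array per group. Pla2g4c encodes a phospholipase of the cytosolic A2 family, and the series title names apoptosis upon its repression as the subject. Each group had a single array, so nothing here rests on replicates and no test was made. No probe could be matched to Pla2g4c, and its knockdown was not checked here.

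ER stress is sensed by 3 membrane proteins of the ER, IRE1 (gene Ern1), PERK (Eif2ak3) and ATF6. IRE1 splices the Xbp1 transcript, ATF6 is cut to release a transcription factor, and both branches induce chaperones, foldases and degradation factors. PERK phosphorylates the initiation factor eIF2 alpha, which slows translation in general while ATF4 protein is made, and ATF4 in turn induces genes of amino acid supply, redox balance and cell death. Other kinases reach the same ATF4 step from amino acid shortage, double-stranded RNA or haem shortage, and this wider scheme is called the integrated stress response. Xbp1 splicing, eIF2 alpha phosphorylation and ATF4 protein were not measured by these arrays, which report transcript levels.

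Levels below are the processed signal of a spot as a multiple of the 75th percentile of its own array, called the scaled signal, and compare the same probe, or the mean of the same probes, between the arrays. Differences are in log2 units, Pla2g4c siRNA minus control, and carry after ± an error propagated from the one the scanner software states for each spot, with no share of the variation between cultures. That error lay between 0.20 and 0.31 for the 29 genes, with a median of 0.20. It was a quadratic mean over spots and probes, not reduced for their number. It is therefore not the precision of a gene's mean, and for most genes it acts as nearly the same cutoff. A gene with several probes has the mean of their differences. Of the epithelial markers 4 of 5 were measured on both arrays (Epcam, Cdh1, Krt8 and Krt19, but not Krt18), and of the basal markers 5 of 5. These markers went both ways, several by more than any of the 29 genes. The basal keratins Krt5 (-1.72), Krt17 (-1.63) and Krt14 (-0.97) were lower in Pla2g4c siRNA cells, and Tp63 was at -0.13. With quantile normalized arrays these keratins were at -1.19 (Krt5), -1.09 (Krt17) and -0.47 (Krt14). Acta2, which was dim, was at 0.37, or 0.04 under another background correction, normexp. Epcam (1.03) was higher and Cdh1 (-0.63) lower, Krt19 was at -0.30, and Krt8, which was dim, was at 0.86, or 0.11 under normexp. Among leukocyte markers 1 of 4 was measured (Cd68), and Ptprc, Cd3e and Itgam were not well above background on both arrays. Among endothelial markers 1 of 3 was measured (Cdh5), without Pecam1 and Kdr, and among fibroblast markers 2 of 3 (Col1a1 and Col1a2). The part of these markers in the results was not tested.

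Differences in the 29 genes were small. A gene is said to pass here at a 1.5-fold difference. In Pla2g4c siRNA cells 4 of them passed as higher, the ER chaperone genes Sdf2l1 and Dnajb9 and the ATF4-type genes Atf3 and Trib3, and 1 passed as lower, Ddit4. Over all 9026 genes 8.69% passed as higher and 10.3% passed as lower, which for 29 genes would be 2.52 and 2.98 genes. The counts of 4 and 1 are therefore near the background of these arrays. At 2-fold the count was 0 of 29, where 5.96% of all genes differed that much in either direction, equal to 1.73 of 29 genes. The median over the 29 genes was 0.12, with 18 above 0, against a median of -0.01 and 49.0% above 0 for all genes. For 13 of the 29 the difference was smaller than the software error, and for 6 it was past 2 errors. Of the 33 measured probes of these genes, 19 had all spots higher on the Pla2g4c siRNA array and 10 all lower. Only 4 overlapped, and 4 others had 1 spot per array and so could not overlap. Lack of overlap thus does not set a gene apart. The matching shares over all genes were not counted, so these counts have no background to be read against. Each direction given here is relative to the bulk of the genes. Scaled to 7 spike-in RNAs, the median of all genes was 0.54 with 88.67% above 0, and 28 of the 29 genes lay above 0, Ddit4 being the exception (-0.18). In the deposited normalized values the median of all genes was 0.12 with 62.75% above 0, and 21 of the 29 lay above 0.

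**Figure D1:**
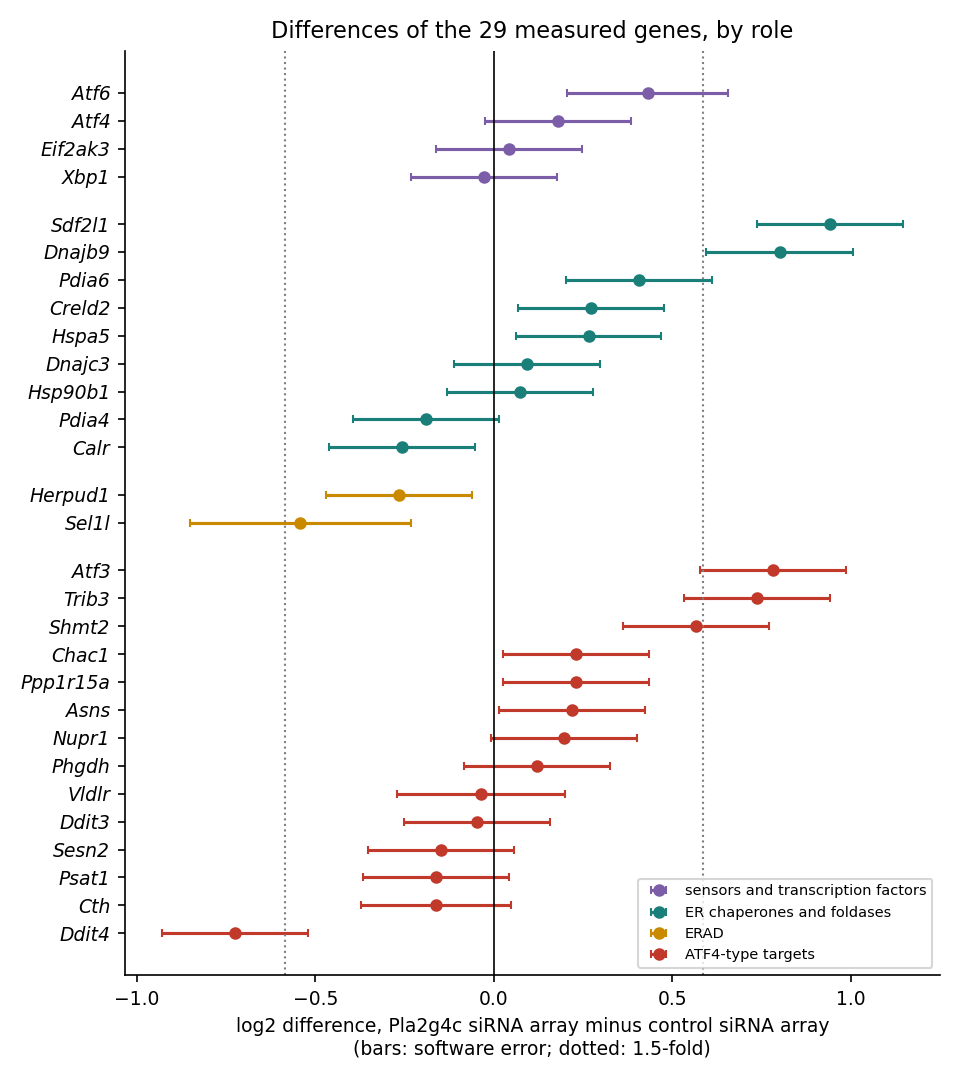
Log2 difference of each of the 29 measured genes between the Pla2g4c siRNA array and the control siRNA array (x axis), grouped by role from top to bottom; points are gene values, bars the software error, dotted lines 1.5-fold. Sdf2l1, Dnajb9, Atf3 and Trib3 lie past the right dotted line and Ddit4 past the left one.

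Among the 4 measured sensors and transcription factors none passed 1.5-fold. Over all genes 8.69% passed as higher and 10.3% as lower, so 4 genes are too few to set apart from that background. Atf6, the ER-resident transcription factor, was at 0.43 ± 0.23, or 0.21 under normexp. Its brighter probe gave a scaled signal of 0.847 in Pla2g4c siRNA cells and 0.625 in control cells, and a second, dimmer probe gave 0.0594 in Pla2g4c siRNA cells and 0.0443 in control cells, so that both probes differed by nearly the same amount (0.44 and 0.42). Xbp1, the transcript that IRE1 splices, was at 0.850 in Pla2g4c siRNA cells and 0.866 in control cells (-0.03 ± 0.20), and the spots of the arrays overlapped. The array does not say which splice form of Xbp1 was present.

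Eif2ak3, the PERK kinase, had 10 spots on each array. They ran from 0.282 to 0.322 in Pla2g4c siRNA cells and from 0.262 to 0.315 in control cells, overlapping for most of their range, with a difference of 0.04 ± 0.20. Atf4 also had 10 spots, from 33.8 to 37.2 in Pla2g4c siRNA cells and from 30.0 to 32.3 in control cells. All Atf4 spots were thus higher on the Pla2g4c siRNA array, while the difference of 0.18 ± 0.20 was within the software error. This gene was among the 903 brightest of the measured genes, whose median difference was -0.14, and its own difference was 0.50 when the arrays were quantile normalized and 0.44 after cyclic loess. Ern1, the IRE1 sensor, was dim, at 0.0138 in Pla2g4c siRNA cells, where it was well above background, and at 0.0100 in control cells, where it was not, so that it has only a bound, at least 1.04-fold higher, which is well inside the probe's software error of 0.54 on the log2 scale.

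The ER chaperones and foldases had a median difference of 0.27 over 9 measured genes of 10, with 7 above 0, 2 passing as higher (8.69% of all genes did) and 0 as lower (10.3% of all genes), too few to set apart from that background. Manf had no probe that could be named here. The highest difference of the 29 was that of Sdf2l1, which encodes a component of ER chaperone complexes. Its first probe read 2.35 and 2.25 in the 2 spots of the Pla2g4c siRNA array, against 1.17 and 1.23 in those of the control array. The second probe, with 1 spot per array, read 1.41 in Pla2g4c siRNA cells and 0.734 in control cells. Both probes therefore showed the same excess, 0.94 and 0.95 on the log2 scale, which made Sdf2l1 1.92-fold higher (0.94 ± 0.20).

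Dnajb9, a co-chaperone of BiP also called ERdj4, read 0.284 and 0.264 in Pla2g4c siRNA cells, against 0.141 and 0.176 in control cells, without overlap. The difference was 0.80 ± 0.21, or 1.74-fold, and 0.59 under normexp background correction. These 2 genes ranked high among all genes, with 96.6% of the 9026 genes below Sdf2l1 and 95.2% below Dnajb9.

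The other 7 measured genes of this group did not pass 1.5-fold. Hspa5, which encodes the master chaperone BiP, read from 14.04 to 15.2 in Pla2g4c siRNA cells and from 11.9 to 12.4 in control cells (0.27 ± 0.20). The difference of Hspa5 was 0.38 with quantile normalized arrays and 0.44 after cyclic loess. Pdia6, a protein disulfide isomerase, was at 6.12 in Pla2g4c siRNA cells and 4.62 in control cells (0.41 ± 0.20), and Creld2, a secreted ER stress protein, at 1.28 in Pla2g4c siRNA cells and 1.06 in control cells (0.27 ± 0.20). Dnajc3, a BiP co-chaperone, differed by 0.09 ± 0.20, and Hsp90b1, the ER form of Hsp90, by 0.07 ± 0.20. On the other side stood the lectin chaperone Calr, at 3.42 in Pla2g4c siRNA cells and 4.09 in control cells (-0.26 ± 0.20), and the disulfide isomerase Pdia4, at 0.470 in Pla2g4c siRNA cells and 0.536 in control cells (-0.19 ± 0.20). Spots of Calr and Pdia4 did not overlap between the arrays, and were lower in Pla2g4c siRNA cells except under spike-in scaling.

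Sequence around the transcription starts shows which of these genes carry known elements of the response. RefSeq windows of 300 bases (250 before and 50 after the start, build GRCr8) were found for 27 of the 32 genes, and for 8 of the 10 chaperones. Ern1, Atf6, Manf, Pdia6 and Atf3 had no window and were not searched. The ER stress response element searched was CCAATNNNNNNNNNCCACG, a CCAAT box and the sequence bound by ATF6 or XBP1 held 9 bases apart, on both strands. It was in 22 of 33469 windows of the whole table (0.0657%) and in 5 of the 8 chaperone windows, those of Hspa5, Hsp90b1, Calr, Dnajc3 and Creld2. A sixth window of the list with it was that of Xbp1. The elements here were searched as ones already known from this response, so their presence in its genes is not an independent result. All 6 of these windows hold the element in full, and those of Hspa5 and Hsp90b1 are shown whole as examples, the second with it on both strands. That of Sdf2l1 is shown whole because its difference was highest. Capitals mark the matches, and a match on the other strand reads CGTGG first and ATTGG last.
Hspa5, chr3:38452766-38453065, plus strand: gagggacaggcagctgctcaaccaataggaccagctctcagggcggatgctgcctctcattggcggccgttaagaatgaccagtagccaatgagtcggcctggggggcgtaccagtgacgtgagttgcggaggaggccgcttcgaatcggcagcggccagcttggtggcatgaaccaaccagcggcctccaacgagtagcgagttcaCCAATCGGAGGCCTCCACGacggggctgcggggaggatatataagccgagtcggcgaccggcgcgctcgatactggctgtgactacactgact
Hsp90b1, chr7:23012244-23012543, minus strand: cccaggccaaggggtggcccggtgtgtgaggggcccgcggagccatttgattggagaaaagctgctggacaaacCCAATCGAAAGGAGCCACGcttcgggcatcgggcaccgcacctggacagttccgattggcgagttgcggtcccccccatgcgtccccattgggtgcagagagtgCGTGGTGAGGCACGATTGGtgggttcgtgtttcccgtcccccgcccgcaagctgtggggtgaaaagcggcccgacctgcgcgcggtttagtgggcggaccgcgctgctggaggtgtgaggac
Sdf2l1, chr11:97376628-97376927, plus strand: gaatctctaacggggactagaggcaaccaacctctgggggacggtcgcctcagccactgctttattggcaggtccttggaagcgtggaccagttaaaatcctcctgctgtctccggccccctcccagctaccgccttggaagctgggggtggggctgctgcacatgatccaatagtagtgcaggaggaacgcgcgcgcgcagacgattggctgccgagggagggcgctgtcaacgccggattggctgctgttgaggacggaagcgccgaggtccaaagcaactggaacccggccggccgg

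The matches of the remaining genes are given with 10 bases on each side, in capitals within lower case, to show how the fixed ends and the free middle differ between genes.
Xbp1, chr14:84604548-84604586, plus strand: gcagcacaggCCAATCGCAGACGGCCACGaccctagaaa
Dnajc3, chr15:102432524-102432562, plus strand: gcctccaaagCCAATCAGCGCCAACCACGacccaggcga
Calr, chr19:40213125-40213163, plus strand: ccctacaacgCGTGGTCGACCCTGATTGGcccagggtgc
Creld2, chr7:121789229-121789267, plus strand: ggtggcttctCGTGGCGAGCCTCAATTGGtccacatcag

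None of the 6 genes with the element passed 1.5-fold, where 8.69% of all genes passed as higher and 10.3% as lower. With so few genes, none passing cannot be set apart from that background. The differences of the 6 ran from -0.26 (Calr) to 0.27 (Creld2). Sdf2l1 and Dnajb9, the chaperone genes that passed, had no match to these exact letters in the window, which says nothing of elements with other letters or elsewhere. A shorter XBP1 and ATF6 core, TGACGTGG, was in 199 of 33469 windows (0.595%) and in 0 of the 27.

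The ER-associated degradation genes Herpud1 and Sel1l were the measured ones of 3, and Edem1 had no probe that could be named here. Both were lower in Pla2g4c siRNA cells, short of 1.5-fold, and above 0 under spike-in scaling. Herpud1, a membrane protein that gathers the degradation complex, was at 1.69 in Pla2g4c siRNA cells and 2.03 in control cells (-0.27 ± 0.20), with no overlap of spots. Sel1l, the adaptor of the HRD1 ubiquitin ligase, was dim, and its probes differed by -0.72 and -0.37, so its mean of -0.54 ± 0.31 is loosely determined. The Herpud1 window holds both a second form of the stress element, ATTGGNCCACG, found in 17 of 33469 windows (0.0508%), and the ATF4 composite element described with the next group.
Herpud1, chr19:10614811-10614841, minus strand, second stress element: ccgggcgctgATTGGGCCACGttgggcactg
Herpud1, chr19:10614874-10614901, minus strand, ATF4 composite element on the other strand: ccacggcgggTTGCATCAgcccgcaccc

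The ATF4-type targets were all measured, with a median difference of 0.16 over 14 genes, 8 above 0, 2 passing as higher (8.69% of all genes did) and 1 as lower (10.3% of all genes), counts near that background. Atf3, a stress-induced transcription factor of the ATF family, read 1.33 and 1.37 in Pla2g4c siRNA cells, against 0.772 and 0.794 in control cells. Its difference of 0.78 ± 0.20 was 1.72-fold. Trib3, a pseudokinase that restrains ATF4 and CHOP, read 2.97 and 3.17 in Pla2g4c siRNA cells, against 1.77 and 1.91 in control cells (0.74 ± 0.20, 1.67-fold). For both genes all spots of the Pla2g4c siRNA array lay above all spots of the control array.

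The other end of this group was Ddit4, which encodes REDD1, an inhibitor of mTORC1. One probe with 9 usable spots ran from 6.84 to 7.46 in Pla2g4c siRNA cells and from 11.5 to 12.4 in control cells, with spot SDs on the log2 scale of 0.05 in Pla2g4c siRNA cells and 0.04 in control cells. A second probe read 0.583 and 0.570 in Pla2g4c siRNA cells, against 0.992 and 0.887 in control cells. Both probes were lower, by -0.75 and -0.70, and the gene was 1.65-fold lower (-0.73 ± 0.20), with 6.44% of all genes below it.

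**Figure D2:**
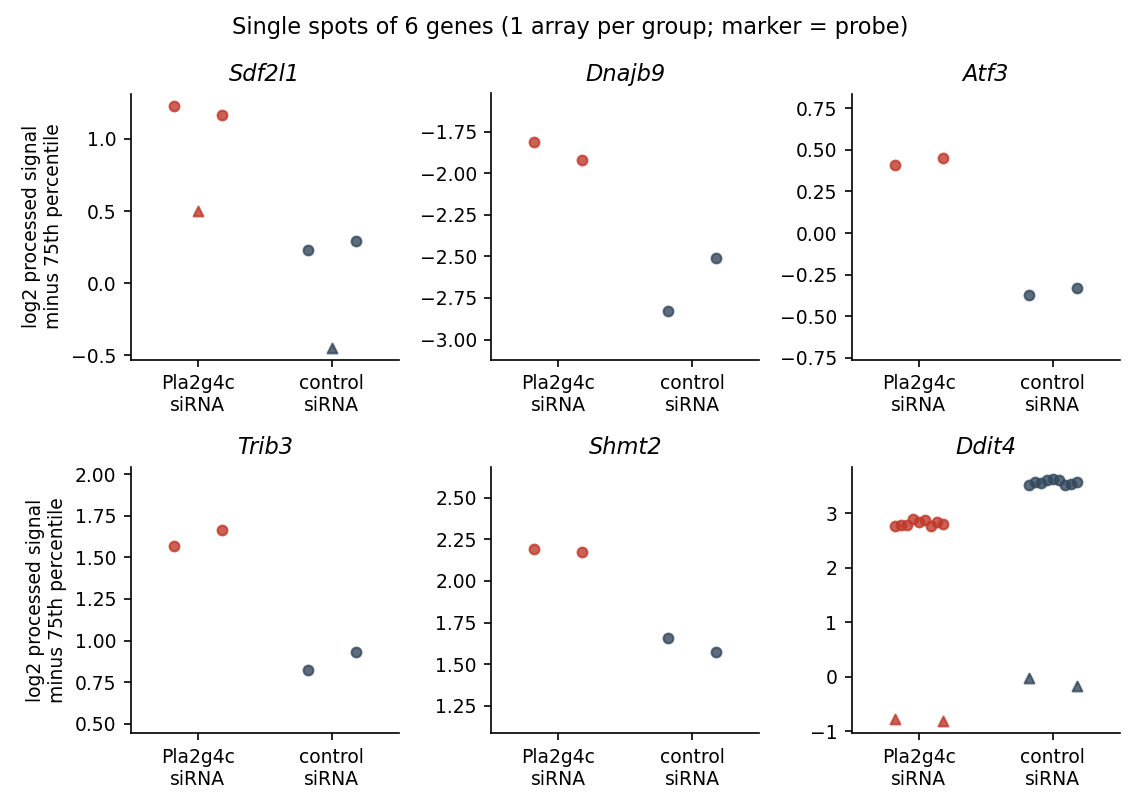
Every usable spot of 6 genes, as log2 of the processed signal minus the log2 75th percentile of its array (y axis), for the Pla2g4c siRNA array on the left and the control siRNA array on the right of each panel; circles and triangles are different probes. Spots of each probe do not overlap between the arrays, with Ddit4 lower and the other genes higher on the Pla2g4c siRNA array. Most measured probes of the 29 genes likewise have no overlap.

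The following 6 ATF4-type genes did not pass 1.5-fold. Ddit3, which encodes CHOP, the factor most often tied to death under ER stress, read from 5.63 to 5.66 in Pla2g4c siRNA cells and from 5.65 to 6.02 in control cells (-0.05 ± 0.20), with overlapping spots. Ppp1r15a, or GADD34, which directs the phosphatase that reverses eIF2 alpha phosphorylation, was at 4.51 in Pla2g4c siRNA cells and 3.84 in control cells (0.23 ± 0.20). Chac1, which degrades glutathione, rested on 1 spot per array, at 0.254 in Pla2g4c siRNA cells and 0.217 in control cells (0.23 ± 0.21). Nupr1, a stress-induced chromatin protein, differed by 0.20 ± 0.20, and Sesn2, a sestrin that restrains mTORC1, by -0.15 ± 0.20 on 1 spot per array. Vldlr, a lipoprotein receptor, was dim, and its control spots of 0.0399 and 0.106 enclosed those of Pla2g4c siRNA cells, 0.0658 and 0.0610 (-0.04 ± 0.24, or -0.30 under normexp).

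Of the amino acid enzymes, Shmt2, the mitochondrial serine hydroxymethyltransferase, came closest to passing. Its spots read 4.58 and 4.51 in Pla2g4c siRNA cells, against 3.16 and 2.98 in control cells (0.57 ± 0.20, 1.48-fold), and it passed 1.5-fold under quantile normalization, cyclic loess and the deposited normalization. Asns, asparagine synthetase, was at 9.62 in Pla2g4c siRNA cells and 8.26 in control cells (0.22 ± 0.20). Its difference was 0.31 with quantile normalized arrays and 0.36 after cyclic loess. The enzymes that make serine were at 0.12 ± 0.20 (Phgdh), -0.16 ± 0.20 (Psat1) and 0.25 ± 0.20 (Psph, from the further genes described last). With quantile normalized arrays Phgdh was at 0.36 and Psat1 at 0.04, and after cyclic loess at 0.35 and 0.05, so the sign of Psat1 depends on the normalization. Cth, which makes cysteine from cystathionine, was at -0.16 ± 0.21.

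The ATF4 composite element, searched as TGATGNAA on both strands, is known to bind ATF4 with a C/EBP partner. It was in 1332 of 33469 windows (3.98%) and in 3 of the 13 ATF4-type windows, those of Trib3, Chac1 and Nupr1, and in 0 of the 8 chaperone windows. Atf3, which passed as higher, is the ATF4-type gene without a window and was not searched. The matches in Chac1 and Nupr1 share the letters TTGCATCA as read on the gene's strand, and that of Trib3 reads TTACATCA. The Trib3 window is shown whole because Trib3 was the gene of this set that passed, and the others with 10 bases on each side.
Trib3, chr3:161275484-161275783, minus strand: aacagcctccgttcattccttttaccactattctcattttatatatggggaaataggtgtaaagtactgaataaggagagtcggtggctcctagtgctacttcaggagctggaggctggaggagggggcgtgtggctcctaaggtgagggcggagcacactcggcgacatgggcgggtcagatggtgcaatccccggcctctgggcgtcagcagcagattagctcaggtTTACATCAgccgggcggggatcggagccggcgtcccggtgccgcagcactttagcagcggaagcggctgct
Chac1, chr3:126795954-126795981, plus strand: ttctccgccgTTGCATCActcctgctag
Nupr1, chr1:190645939-190645966, minus strand: aaaggccagaTTGCATCAgacagggctt

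ER chaperones and ATF4-type targets were then set side by side. The chaperone median exceeded the ATF4-type median by 0.11, which is less than the median software error of 0.20 for a single gene. The chaperones spanned -0.26 to 0.94 and the ATF4-type genes -0.73 to 0.78, so that the groups overlapped over most of their range. In each group 2 genes were at least 1.5-fold higher. With 1 array per group no test of this difference was possible. Under cyclic loess the medians were 0.25 for the chaperones and 0.23 for the ATF4-type targets, while adding Herpud1 and Sel1l to the chaperones turned the order, with a difference of -0.07. Spike-in scaling gave 0.81 for the chaperones and 0.71 for the ATF4-type targets.

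**Figure D3:**
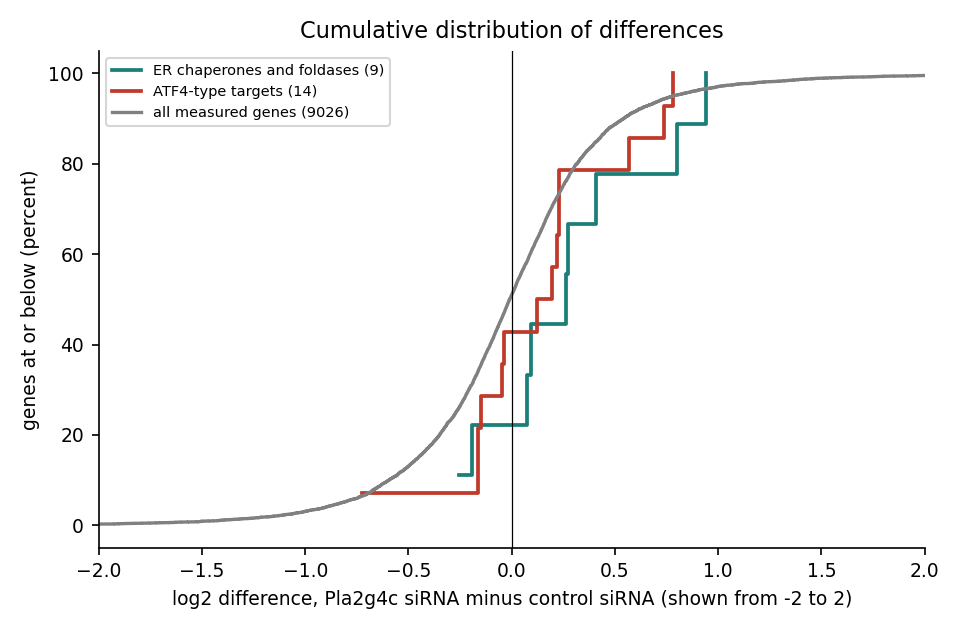
Share of genes (y axis, percent) at or below each log2 difference between the Pla2g4c siRNA array and the control siRNA array (x axis), for 9 ER chaperones and foldases, 14 ATF4-type targets and all 9026 measured genes. The curves of both groups lie mostly to the right of the curve of all genes and cross each other, and the all-gene median is -0.01.

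**Figure D4:**
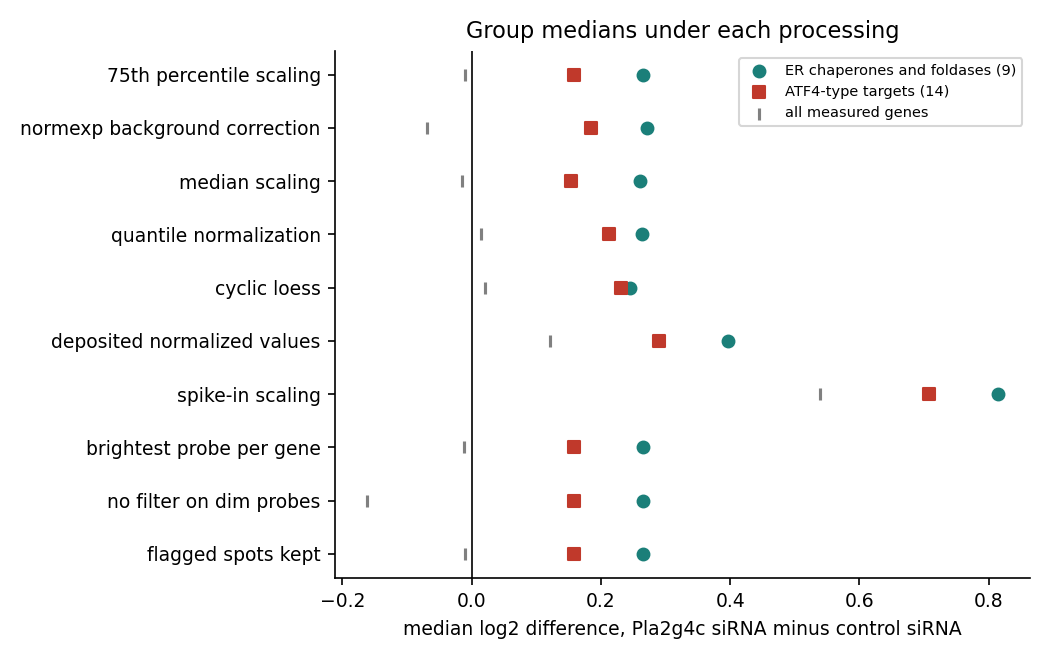
Median log2 difference (x axis) of the ER chaperones, the ATF4-type targets and all measured genes under each processing (rows). The chaperone median lies between 0.25 and 0.81 and the ATF4-type median between 0.15 and 0.71, and the spike-in row moves all 3 groups together.

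Further genes of the 2 pathways, listed by role, gave the surroundings of these values. Of 71 such genes 59 were measured, with a median of 0.02, 31 above 0, with 5 past 1.5-fold upward and 4 past it downward. These counts are near the shares over all genes, 8.69% upward and 10.3% downward. The other ER folding genes had a median of -0.09 over 17 measured genes, with 0 at least 1.5-fold higher and 1 lower. That gene was P4hb, the classical protein disulfide isomerase, at 11.2 in Pla2g4c siRNA cells and 18.7 in control cells (-0.74 ± 0.20, 1.67-fold lower). Sil1, a nucleotide exchange factor of BiP, was next at -0.52 ± 0.20, while the prolyl isomerases Fkbp11 (0.50 ± 0.20) and Fkbp14 (0.23 ± 0.22) were highest, of which Fkbp14 was dim and at -0.06 under normexp. The chaperones described first had a median of 0.27, and the difference between the lists was not tested.

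Other degradation genes had a median of 0.17 over 8 measured genes and none passed 1.5-fold. They ran from the lectin Os9 (-0.36 ± 0.20) and the ubiquitin ligase Syvn1 (-0.05 ± 0.20) to the ubiquitin-conjugating enzyme Ube2j1 (0.26 ± 0.20) and the selenoprotein Selenos (0.38 ± 0.20). Signal transducers had a median of -0.08 over 14 genes, with 2 passing in each direction. Over all genes 8.69% passed as higher and 10.3% as lower, and both lists are too short to set apart from that background. Eif2ak2, the eIF2 alpha kinase that senses double-stranded RNA, was dim, at 0.0776 in Pla2g4c siRNA cells and 0.152 in control cells. Its difference was -0.97 ± 0.22, or -0.70 under normexp. Creb3l2, an ER-anchored transcription factor related to ATF6, was at 0.593 in Pla2g4c siRNA cells and 1.11 in control cells (-0.90 ± 0.20, or -0.86 under normexp). Wfs1, an ER membrane protein (0.61 ± 0.21), and Mbtps2, the protease that makes the second cut in ATF6 (0.59 ± 0.26), were the high pair, but both were dim and their differences were 0.29 and 0.06 under normexp.

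Other ATF4 partners and targets had a median of 0.08 over 20 genes, yet held the widest spread of these lists. Pycr1, a mitochondrial enzyme of proline synthesis, was at 5.17 in Pla2g4c siRNA cells and 2.28 in control cells, 2.27-fold higher (1.18 ± 0.20). Slc7a11, the cystine transporter subunit, was 1.98-fold higher (0.98 ± 0.23, or 0.60 under normexp), and Gdf15, a stress-induced cytokine, was 1.95-fold higher (0.96 ± 0.21, or 0.73 under normexp). In the other direction Atf5, a transcription factor translated like ATF4 under stress, was at 2.05 in Pla2g4c siRNA cells and 4.204 in control cells, 2.05-fold lower (-1.03 ± 0.20). Aldh1l2, a mitochondrial folate enzyme, was next at -0.53 ± 0.35 and dim. Known targets of ATF4 thus lay at both ends, with Pycr1, Trib3 and Atf3 high and Ddit4 low.

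**Figure D5:**
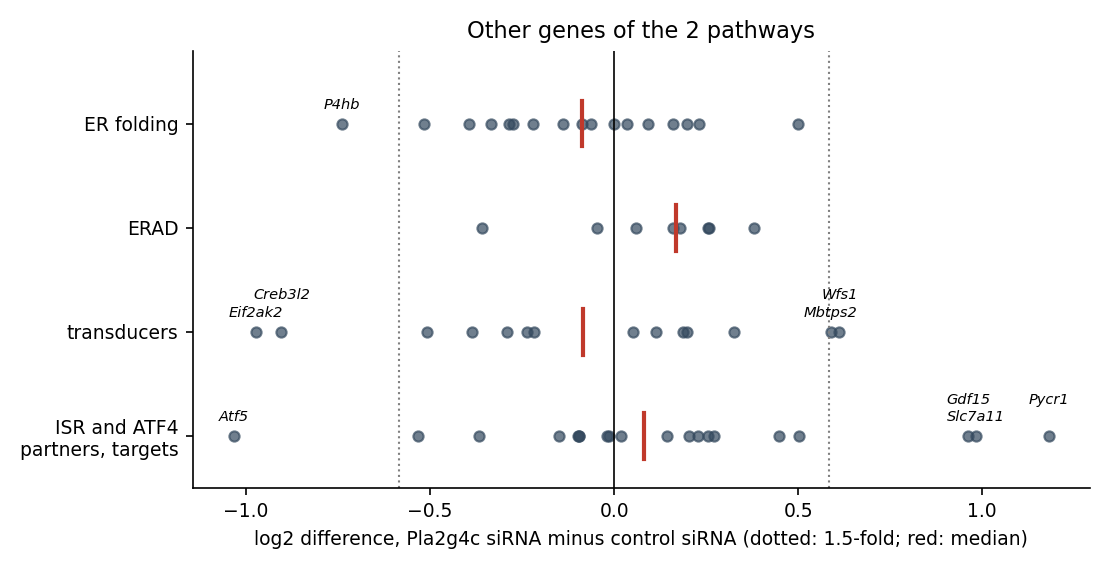
Log2 difference between the Pla2g4c siRNA array and the control siRNA array (x axis) of 59 further genes in 4 lists (rows); points are genes, red bars list medians, dotted lines 1.5-fold. Named points are the 5 genes past the right line and the 4 past the left line.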

How the data were processed

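Both arrays were deposited as scanner files whose values are spot intensities on a linear scale, made with Agilent Feature Extraction (the headers of the files give version 10.10.1.1, the submitters' processing notes 10.10). Flags of 0 or 1 for outliers and background were used as deposited by the authors. The authors also deposited normalized intensities, which when set against the processed signal gave one ratio per array (1.50 for Pla2g4c siRNA, 1.77 for control). Both arrays share a slide and scan per the file headers.

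Gene spots with an outlier flag (381 on the Pla2g4c siRNA array, 466 on the control array) were dropped from both arrays, and log2 processed signals were reduced by the array's 75th percentile (1105 for Pla2g4c siRNA, 852 for control). Spots of a probe were averaged, and measured probes are those with every remaining spot well above background in both hybridisations (16840 of 30367 gene probes). Probes were named by RefSeq accession (59.3%, table of build GRCr8), and unnamed probes are in no count. Precision is limited by 1 array per group. A bound sets the brighter array against the higher of the dim probe's signal and the lowest signal well above background.

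All 32 listed genes are named, and of the wider lists the 2 highest, the 2 lowest and those past 1.5-fold. Members, lists, roles and the 1.5-fold threshold were chosen with earlier results of these data known. Normexp (offset 50) used the median spot signal. Python 3.11.15, numpy 2.4.6, pandas 2.3.3 and R 4.3.3 with limma 3.58.1 were used, and the steps were tested on simulated data.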

Additional observations from a re-analysis of the deposited data

How the results depend on the processing

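The medians of the ER chaperones and of the ATF4-type targets, their difference and the count of 5 genes past 1.5-fold moved by less than the software error (counts by less than 1.5 times) under normexp, median scaling, quantile normalization, cyclic loess, the deposited values, use of a gene's brightest probe only, keeping dim probes and keeping flagged spots. The difference between the medians could not change under median scaling, the deposited values or spike-in scaling, which shift each array by a constant. It also stayed at 0.107 with the brightest probe only, dim probes kept or flagged spots kept. It was 0.087 under normexp, 0.052 under quantile normalization and 0.015 under cyclic loess. No paired analysis was possible because each group had 1 array, and for the same reason no array could be left out. The share of all genes above 0 was 49.0%, against 62.75% in the deposited values, 88.67% under spike-in scaling and 37.69% with dim probes kept. Spike-in scaling gave medians of 0.81 and 0.71 and 18 genes past 1.5-fold, since it raises all genes. A threshold of 2-fold left 0 genes. The difference between the medians was -0.07 with the degradation genes added to the chaperones, and so of opposite sign. It was 0.06 without Psat1, Phgdh, Shmt2 and Cth among the ATF4-type targets, and 0.14 with means in place of medians. These values were all within the software error of 0.20. Sdf2l1, Dnajb9, Atf3 and Trib3 passed 1.5-fold under each normalization, background, probe and filter alternative run, and Ddit4 under all of these but spike-in scaling. Dnajb9 passed only barely under normexp, at 0.593 against a threshold of 0.585. Dnajb9, Atf3 and Trib3 have 1 probe each with no flagged spot, so the probe and filter alternatives could not change them. Shmt2 passed as well under quantile normalization, cyclic loess, the deposited values and spike-in scaling, and Sel1l passed as lower by its brightest probe.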
